A study of Homo sapiens with 2 samples.

Results

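The AP-1 subunits described here are 10 genes of the FOS, JUN, MAF and ATF groups: FOS, FOSB, FOSL1, FOSL2, JUN, JUNB, JUND, MAFF, ATF3 and BATF2. Every probe set whose platform gene symbol was exactly one of these names was taken, which gave 23 probe sets of the 10 genes out of 19775 genes with a probe set of their own symbol. The genes were chosen by symbol and selected on the intensities of these same 2 arrays, which were already known, so the values below describe the members and are no test of the choice. RNA came from the human glioma cell line U251, transfected with miR-31 (1 Affymetrix HG-U133_Plus_2 array) or with a control (1 array). The labels do not say what was transfected as the control, in what form miR-31 was delivered, or how long before harvest. No replicate exists, so no p-value is given, and the number of arrays limits the precision of every value.

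AP-1 is a family of dimeric transcription factors. Each subunit carries a basic region that touches DNA and a leucine zipper that joins it to a partner, and the choice of partner sets which sites the dimer binds and how strongly it activates. FOS proteins need a JUN partner, whereas JUN proteins can also pair with themselves. Growth factor signalling through the ERK and JNK kinases raises the transcription and the activity of several subunits, and in glioma cells AP-1 is known for driving genes of invasion and inflammation.

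The RefSeq sequence of mature miR-31 and the promoter letters of 4 subunit genes are shown first. The form in which miR-31 was delivered is not given, so the transfected molecule may differ from the strand shown. The promoters show which AP-1 and related motifs lie at these genes. The array values below do not depend on these sequences. The mature strand hsa-miR-31-5p comes from chr9:21512158-21512178 on the minus strand (RefSeq, GRCh38.p14), and capitals mark its seed, bases 2 to 8, with which a microRNA finds its targets.
hsa-miR-31-5p: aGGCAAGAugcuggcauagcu
Mature miR-31 is not read by the probe sets used here, so its level was not checked.

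Promoters were taken from RefSeq for 9 of the 10 members, 11 starts in all. Each ran from 250 bases before the transcription start to 50 bases after it. FOSL1 had no entry in the promoter set used, so its promoter was not searched. Both strands were searched for the TPA response element TGANTCA, the cyclic AMP response element TGACGTCA, the variants TGACATCA and TTACNTCA known from the JUN promoter, the CArG box of the serum response element, and the interferon-stimulated element, which is GAAA, any 2 bases and GAAA again. No 2 matches overlapped. The 4 promoters below were chosen to set MAFF, which was lower in the miR-31 array, beside JUND, which holds the same octamer and was within 2-fold, and beside JUN and FOSL2, which hold other AP-1 letters. Capitals mark the matches, and each promoter is written 5′ to 3′ on the strand of its gene (GRCh38.p14).
MAFF, first start, chr22:38201744-38202043, plus strand: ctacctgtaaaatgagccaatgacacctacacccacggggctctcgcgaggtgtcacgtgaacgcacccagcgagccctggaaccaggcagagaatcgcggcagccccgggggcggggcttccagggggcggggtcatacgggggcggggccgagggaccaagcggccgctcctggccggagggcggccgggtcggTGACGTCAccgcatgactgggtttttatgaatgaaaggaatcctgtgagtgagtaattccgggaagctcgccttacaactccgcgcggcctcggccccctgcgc
JUND, chr19:18281573-18281872, minus strand: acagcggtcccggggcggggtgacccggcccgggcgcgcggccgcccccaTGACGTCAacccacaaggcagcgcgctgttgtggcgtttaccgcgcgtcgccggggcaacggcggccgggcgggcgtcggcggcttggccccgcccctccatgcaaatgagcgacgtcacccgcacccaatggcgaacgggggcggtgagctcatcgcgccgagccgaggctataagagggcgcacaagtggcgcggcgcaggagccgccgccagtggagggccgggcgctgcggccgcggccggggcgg
JUN, chr1:58783998-58784297, minus strand: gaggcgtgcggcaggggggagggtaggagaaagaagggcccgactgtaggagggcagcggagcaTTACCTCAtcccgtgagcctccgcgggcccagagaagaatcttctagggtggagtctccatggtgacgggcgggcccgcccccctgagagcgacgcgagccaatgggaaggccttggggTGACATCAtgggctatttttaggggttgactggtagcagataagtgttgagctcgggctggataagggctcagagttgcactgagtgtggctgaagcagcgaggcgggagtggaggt
FOSL2, chr2:28392608-28392907, plus strand: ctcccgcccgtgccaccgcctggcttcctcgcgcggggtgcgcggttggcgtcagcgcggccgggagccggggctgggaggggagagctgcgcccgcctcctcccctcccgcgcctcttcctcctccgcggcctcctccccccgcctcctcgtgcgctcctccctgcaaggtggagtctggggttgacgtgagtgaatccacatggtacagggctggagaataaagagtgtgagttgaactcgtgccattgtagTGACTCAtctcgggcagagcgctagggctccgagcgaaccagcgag
With the start counted as base 0, the octamer TGACGTCA lay at bases -54 to -47 in the MAFF promoter and at bases -200 to -193 in the JUND promoter. It was in 1.85% of the 35116 promoters searched. In the JUN promoter TTACCTCA lay at bases -186 to -179 and TGACATCA at bases -67 to -60, and these 2 patterns were in 2.57% and 2.61% of all promoters. FOSL2 held TGACTCA just inside the transcribed part, at bases 4 to 10, and 7.71% of promoters hold TGANTCA.

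Of the other promoters, the first ATF3 start and BATF2 also held TGACATCA, and FOSB held TTACNTCA on the opposite strand at bases -60 to -53. FOS, JUNB, the second MAFF start and the second ATF3 start had none of the 6 patterns. The CArG box and the interferon-stimulated element were in 0 of the 11 promoters, against 1.29% and 3.57% of all promoters. The only BATF2 window, chr11:64990228-64990527 on the minus strand, lay at a start inside the gene. The 5′ end of BATF2 is at base 64996971, and the promoter at that end was not searched. A match is a description of the letters, and no match says only that these letters are not in this window.

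**Figure D1:**
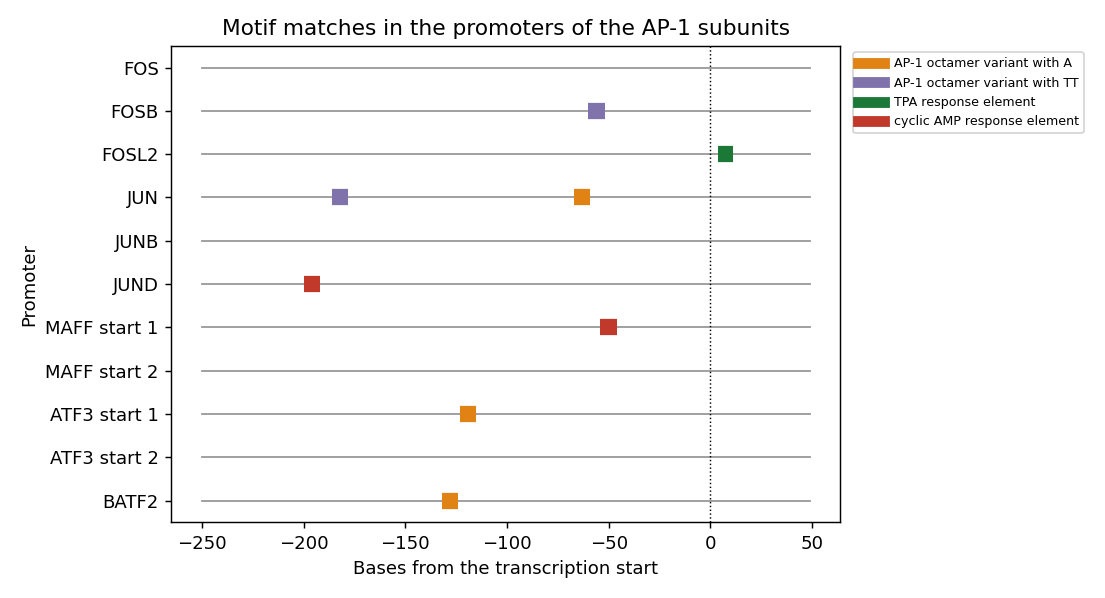
Position of each motif match (coloured block) in the 11 promoters of the subunits, in bases from the transcription start (dotted line), with 1 grey line per promoter. TGACGTCA is the red block of MAFF and JUND, and JUN alone among the promoters drawn has 2 matches.

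Intensities were given by the authors on a linear scale, and the 2 arrays had been brought to a common level before deposit. The ratio of a gene is its log2(intensity + 16) with miR-31 minus its log2(intensity + 16) with the control, so that -1 is 2-fold lower in miR-31-transfected cells, and the added 16 understates the change of dim probe sets. Probe sets whose log-scale mean of both arrays reached an intensity of 62.7, the median of the whole array, passed a level filter, and the brightest of them stood for each gene. This kept 17 of the 23 probe sets and 7 of the 10 members. FOS, FOSB and BATF2 were below the level filter by their mean over both arrays. Whether their signal exceeded background was not measured, so their values are read with caution. Over 11787 genes compared the median ratio was 0.03, the central 95% of ratios ran from -0.87 to 1.15, and the 18 bacterial hybridisation controls and 24 poly-A spike-in controls had medians of 0.19 and 0.55.

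Without replicates, the disagreement between probe sets of the same gene is the gauge of noise used here, and it covers only part of it. Over the 3142 genes that had 2 kept probe sets, the SD of a ratio was 0.33. Both probe sets are read on the same 2 arrays, so it leaves out any difference between cultures, RNA preparations and hybridisations. Probe sets of different genes differ in how brightly they read, so levels were compared between arrays and never between genes. In a bulk RNA sample fewer cells that express a gene and less RNA per cell cannot be told apart. Of the 8 markers listed for glial and glioma cells 6 passed the level filter, namely VIM, NES, CD44, GFAP, SLC1A3 and FABP7. S100B, with 50.8 in the miR-31 array and 38.1 in the control array, did not pass. Nor did AQP4, with 31.3 in the miR-31 array and 2.08 in the control array. Of the 8 immune markers 6 had a probe set and 2 passed the filter, and over these 6 intensities ran from 17.0 to 101 in the miR-31 array and from 4.45 to 76.2 in the control array. Of the 7 endothelial and epithelial markers 2 passed, KDR and PECAM1. KDR had 281 in the miR-31 array and 539 in the control array, and PECAM1 had 124 in the miR-31 array and 121 in the control array.

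Of the 7 AP-1 subunits above the level filter, FOSL1 and MAFF differed most between the arrays by their representative probe sets, both about 3-fold lower in miR-31-transfected cells. Of the 7 members compared, 2 were lower by 2-fold or more and 0 were higher by as much, while 1.58% of all genes compared were that much lower and 3.74% that much higher. The other 5 members lay within 2-fold, JUN and ATF3 below 0 and FOSL2, JUNB and JUND above 0. The median of the 7 ratios was -0.30. The same arrays were used to select these genes, so nothing is read from the share.

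**Figure D2:**
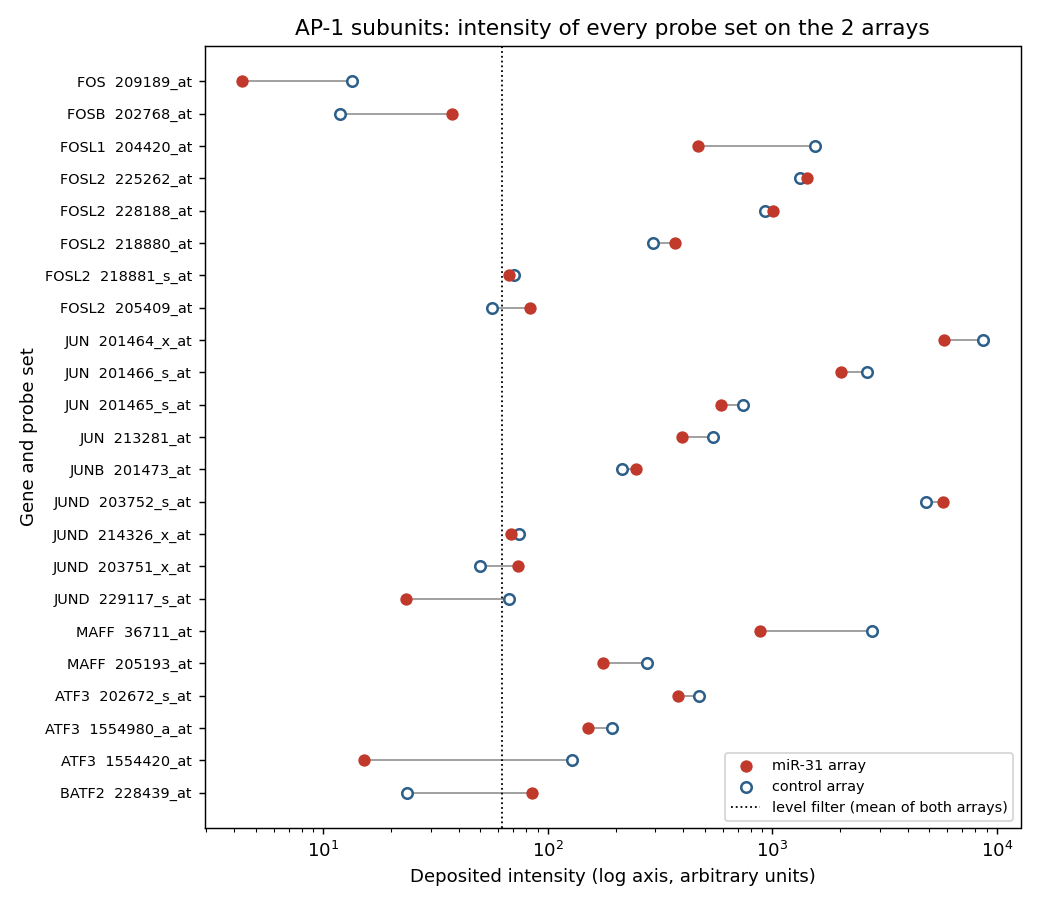
Deposited intensity (log axis) of each of the 23 probe sets of the 10 AP-1 subunits in the miR-31 array (filled red) and the control array (open blue), joined by a line, with the level filter of 62.7 dotted. FOSL1 and probe set 36711_at of MAFF show wide gaps well above the filter, and the 4 JUN probe sets all lie lower in the miR-31 array.

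Among the FOS family, FOSL1 encodes Fra-1, a FOS protein that lacks the strong activation domain of c-Fos and whose gene is a classical output of ERK signalling. Its only probe set, 204420_at, had an intensity of 466 in the miR-31 array and 1539 in the control array, which is 3.30-fold lower in the miR-31 array. Both values lay far above the level filter, so the ratio of -1.69 depends little on the added 16. Only 35 of the 11787 genes had a lower ratio. When all genes compared were split into 4 groups by mean level, FOSL1 fell in the third, and of the 2946 genes there 1.26% were at least 2-fold lower. With 1 probe set, FOSL1 has no second reading on the array to set beside it.

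FOSL2, which encodes the related protein Fra-2, was read by 5 kept probe sets, and all of them lay within 2-fold. Its representative probe set 225262_at had 1421 in the miR-31 array and 1325 in the control array, a ratio of 0.10. Probe set 228188_at had 1004 in the miR-31 array and 928 in the control array (0.11), and 218880_at had 370 in the miR-31 array and 295 in the control array (0.31). The remaining 2 were close to the level filter: 205409_at had 83.3 in the miR-31 array and 56.1 in the control array (0.46), and 218881_s_at had 67.0 in the miR-31 array and 70.8 in the control array (-0.06). FOSL2 was thus above 0 on 4 of 5 probe sets, but its representative ratio was -0.09 with centring on the hybridisation controls and -0.45 with centring on the poly-A controls. FOSL1 and FOSL2 therefore had unlike ratios on the same 2 arrays, a gap of 1.79 that no common shift of scale alters. Whether the gap exceeds the spread between cultures cannot be tested with 1 array a group.

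FOS and FOSB, the FOS genes best known for a fast and brief rise after serum or growth factors, were dim on both arrays. FOS had 4.32 in the miR-31 array and 13.4 in the control array, and FOSB had 37.4 in the miR-31 array and 11.8 in the control array. Their ratios were -0.53 for FOS and 0.94 for FOSB. Changes of 2-fold were common at such levels: of the 7988 genes whose brightest probe set was below the filter, 10.2% were that much lower and 9.3% that much higher. With 1 added in place of 16, the same intensities gave -1.44 for FOS and 1.58 for FOSB, and with 64 they gave -0.18 and 0.42, so the size of both depends on the pseudocount.

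JUN, the partner that most AP-1 dimers share, was slightly lower in miR-31-transfected cells on each of its 4 probe sets. Probe set 201464_x_at had 5808 in the miR-31 array and 8699 in the control array (-0.58). Probe set 201466_s_at had 2015 in the miR-31 array and 2639 in the control array (-0.39). Probe set 201465_s_at had 588 in the miR-31 array and 741 in the control array (-0.33), and 213281_at had 394 in the miR-31 array and 544 in the control array (-0.45). The 4 ratios lay within 0.25 of each other, less than the SD of 0.33 between probe sets of a gene. The representative ratio fell just short of 1.5-fold, and 802 of the 11787 genes had a lower one. Probe sets of 1 gene read the same RNA sample and are not replicates of the condition. All JUN probe sets except 213281_at carry the suffix _s_at or _x_at, which marks probes that may also read other transcripts.

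JUNB and JUND, the other JUN proteins, stayed within 2-fold. JUNB, a weaker activator than JUN that can also restrain it, had 246 in the miR-31 array and 213 in the control array on its only probe set, a ratio of 0.19. JUND, which most cells express at a steady level, had 5761 in the miR-31 array and 4843 in the control array on its representative probe set 203752_s_at (0.25). Both signs turn with centring on the poly-A controls, to -0.36 for JUNB and -0.30 for JUND. The other JUND probe sets were dim and did not share a direction: 214326_x_at had 68.2 in the miR-31 array and 74.3 in the control array (-0.10), 203751_x_at had 73.8 in the miR-31 array and 49.9 in the control array (0.45), and 229117_s_at had 23.4 in the miR-31 array and 67.2 in the control array (-1.08). All 4 JUND probe sets carry the suffix _s_at or _x_at, which marks probes that may also read other transcripts.

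MAFF is a small MAF protein, a bZIP subunit without an activation domain of its own that pairs with NFE2-related and BACH factors. Its probe set 36711_at had 881 in the miR-31 array and 2784 in the control array, 3.16-fold lower in the miR-31 array and a ratio of -1.64. Only 40 of the 11787 genes had a lower ratio. Its other probe set, 205193_at, had 176 in the miR-31 array and 275 in the control array, a ratio of -0.60. Both probe sets were lower in miR-31-transfected cells and above the level filter on both arrays, but they differed by 1.04 in size, and 4.07% of the 3142 genes with 2 kept probe sets had a gap as wide. The mean of the 2 was -1.12, which still reached 2-fold, while 205193_at on its own did not.

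ATF3, a stress-induced bZIP factor that represses as a homodimer, had 379 in the miR-31 array and 471 in the control array on its representative probe set 202672_s_at (-0.30). Probe set 1554980_a_at had 150 in the miR-31 array and 193 in the control array (-0.33), so both kept probe sets gave nearly the same small difference. The third, 1554420_at, had 15.1 in the miR-31 array and 128 in the control array (-2.21), the lowest ratio of the 23. Its mean level was below the filter, and the deposited table does not say which ATF3 transcripts it reads.

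BATF2, also known as SARI, is an interferon-induced member of the BATF group reported to hold AP-1 activity down. Its only probe set, 228439_at, had 85.2 in the miR-31 array and 23.5 in the control array, a ratio of 1.36. On the scale with 16 added it was the only probe set of the 23 that was higher by 2-fold or more with miR-31, while on the deposited intensities FOSB was also past 2-fold. It passed an intensity of 62.7 in the miR-31 array alone, its mean level was below the filter, and its ratio was 0.77 with an added 64, which is under 2-fold. Other interferon-regulated genes were higher in the miR-31 array as well, among them IRF9, a subunit of the interferon-activated factor ISGF3, with 1979 in the miR-31 array and 475 in the control array (2.02), named after its value was seen. The part of that response in the BATF2 value was not tested.

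**Figure D3:**
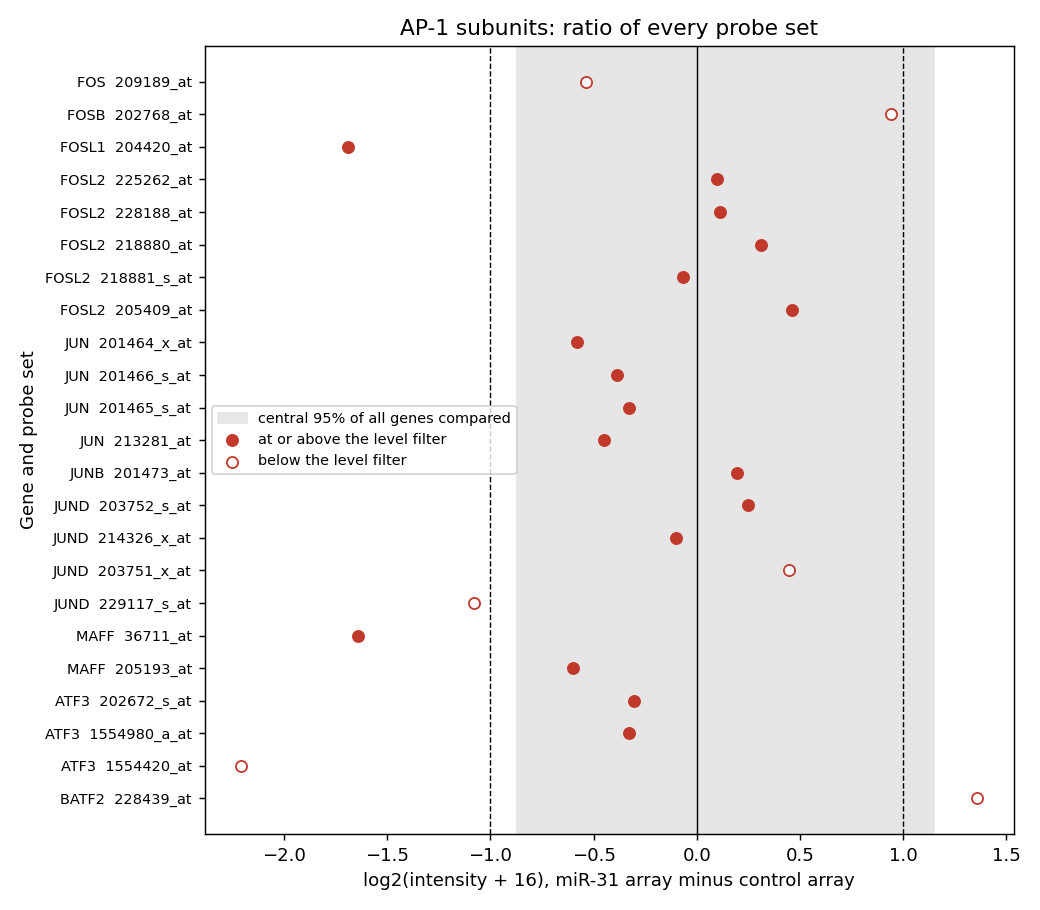
Ratio of each of the 23 probe sets, as log2(intensity + 16) with miR-31 minus that with the control, filled where the probe set passed the level filter and open where it did not, with 2-fold dashed and the central 95% of all genes in grey. Of the filled points, FOSL1 at -1.69 and MAFF at -1.64 lie left of the 2-fold line, and FOSL2, JUN, JUNB, JUND and ATF3 lie inside the grey band.

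The subunits' bZIP relatives were mostly within 2-fold, as were most genes on the arrays. Of 24 listed, 17 were compared, with 2 lower by 2-fold or more and 0 higher, against 1.58% and 3.74% of all genes compared. The median ratio of the 17 was -0.19, against 0.03 over all genes. BATF3, a BATF protein that pairs with JUN, had 376 in the miR-31 array and 782 in the control array (-1.03). BACH2, a repressor that pairs with small MAF proteins, had 57.9 in the miR-31 array and 143 in the control array (-1.10), so it passed the filter through the control array, and its other probe set, below the filter, was higher in the miR-31 array. With 64 added, neither BATF3 nor BACH2 reached 2-fold. NFE2L3, another partner of small MAF proteins, had 0.64 on its representative probe set and 1.20 on the other. MAFG, a small MAF protein like MAFF, had 703 in the miR-31 array and 1010 in the control array (-0.51, and -0.10 on its other probe set). JDP2, a repressor that dimerises with JUN, had 0.35, and ATF5 had -0.55, with its 3 kept probe sets between -1.56 and 0.13. MAFK was not analysed here.

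The kinases upstream of AP-1 were nearly all within 2-fold, as were most genes on the arrays. Of 22 kinases of the MAP kinase cascades and their RSK and MSK partners, 17 were compared. A change of 2-fold was reached by 0 that were lower and by 1 that was higher, against 1.58% and 3.74% of all genes compared. The median of the 17 was 0.14. The higher one was MAP2K6, an activator of p38, with 244 in the miR-31 array and 99.1 in the control array (1.18). It was no longer past 2-fold with an added 64 or with centring on either set of controls. MAPK12 and MAPK11, both p38 kinases, had 0.75 and 0.73. MAP2K1, the kinase MEK1 that activates ERK, had 2766 in the miR-31 array and 3691 in the control array (-0.41). MAPK8, the kinase JNK1 that phosphorylates JUN, had 0.04, with its kept probe sets between -0.46 and 0.23. Arrays do not read kinase activity.

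SRF and its partners bind the serum response element that switches FOS on. All 6 listed were compared and none reached 2-fold, while 1.58% of all genes compared were that much lower and 3.74% that much higher. The median of the 6 was -0.31. SRF had 301 in the miR-31 array and 499 in the control array (-0.70), the lowest of the 6, although its second probe set was dim and went the other way. ELK3 had -0.43 and MRTFA -0.41, ELK4 had -0.20 and ELK1 had 0.13. Kept probe sets ran from -0.41 to 0.13 for MRTFA and from -0.12 to 0.13 for ELK1, so both signs depend on the probe set. Of 12 cofactors and turnover factors of AP-1, 9 were compared and 0 reached 2-fold, against the same shares of all genes. Their median was -0.07. COP1, a ubiquitin ligase that removes JUN, had 0.43. FBXW7, another ligase for JUN, had -0.32, SIRT1, a deacetylase, -0.32, and COPS5, a coactivator of JUN, -0.30.

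Among genes reported as AP-1 targets, more were lower than higher in miR-31-transfected cells. Of 40 listed, 28 were compared, with 10 lower by 2-fold or more and 1 higher, against 1.58% and 3.74% of all genes compared. The median of the 28 was -0.33, against 0.03 over all genes. Several of these genes were known from earlier results of these arrays when the list was drawn up, so the count is a description and no independent support. SPHK1, which makes sphingosine 1-phosphate, had 246 in the miR-31 array and 1338 in the control array (-2.37). The neutrophil chemokine gene CXCL8 had -2.06, the G1 cyclin gene CCND1 -1.94 and the cytokine gene IL11 -1.86, each with a second probe set also past 2-fold. The other 6 at least 2-fold lower, named after their values were seen, were PLAUR, IL6, LIF, HBEGF, EDN1 and KRT18, and VEGFA was the higher one. Kept probe sets ran from -1.55 to -0.76 for PLAUR and from 0.60 to 1.58 for VEGFA, so both calls depend on the probe set. IL6 (-1.07) and KRT18 (-1.01), each with 1 probe set, lay close to the threshold. Other targets were within 2-fold on either side of 0. PLAU, the urokinase gene, had 0.02, HMOX1 -0.04, EZR -0.23 and CDKN1A 0.74, also named after their values were seen. The kept EZR probe sets lay between -0.23 and 0.46.

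Early response genes outside AP-1, which are induced by the same signals as FOS and FOSL1, were mixed. Of 23 listed, 18 were compared, with 2 lower by 2-fold or more and 0 higher, against 1.58% and 3.74% of all genes compared. The median of the 18 was -0.31. IER3 had 632 in the miR-31 array and 3987 in the control array (-2.63), and TRIB1 had 430 in the miR-31 array and 1397 in the control array (-1.66). CCN2 had -0.89 and NR4A1 0.89, while EGR1, a zinc finger factor switched on with FOS, had 0.26 and MYC -0.01. NR4A1 had 112 in the miR-31 array and 53.3 in the control array, so it passed the filter through the miR-31 array. Of its 3 probe sets 1 was kept. The kept EGR1 probe sets lay between -0.25 and 0.45. Of 15 stress response genes listed beside ATF3, all were compared, and 2-fold was reached by 0 that were lower and by 1 that was higher. Their median was -0.15. The higher one was DDIT4 (3.08), an inhibitor of mTOR signalling. GADD45A had -0.73, VLDLR 0.61, SESN2 0.55 and DDIT3, a partner of ATF4 and ATF3, -0.48.

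**Figure D4:**
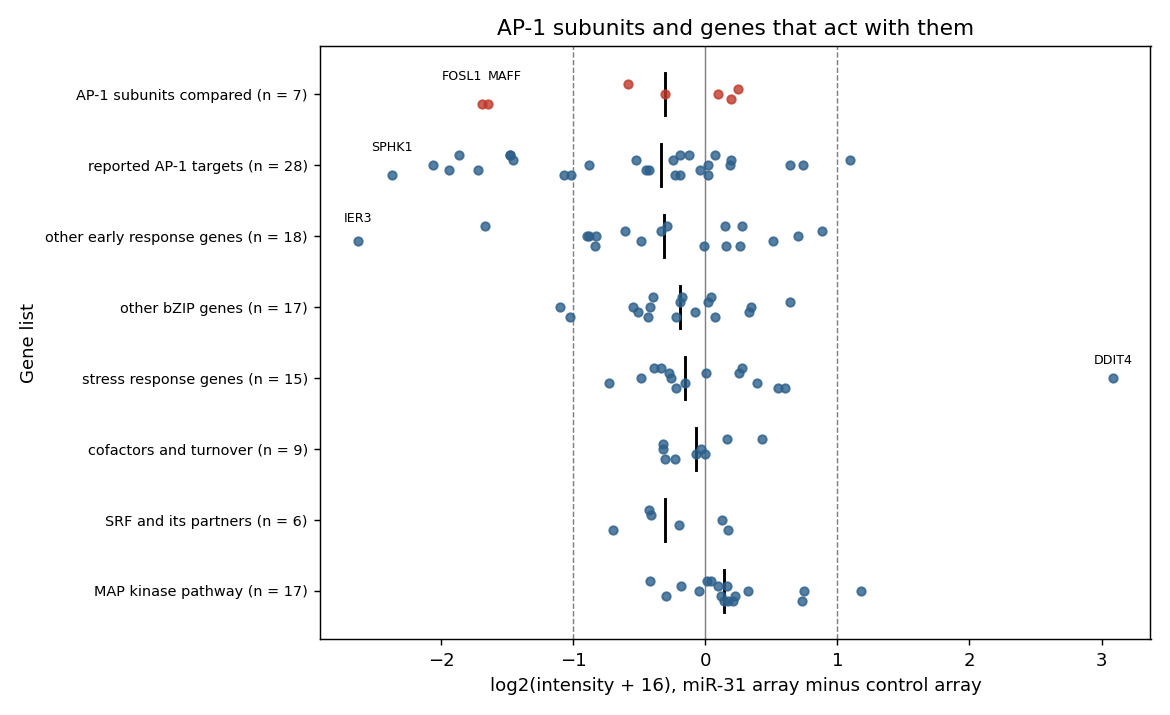
Ratio of the 7 AP-1 subunits compared (red) and of the compared genes of 7 lists (blue), 1 point a gene, with the median of each list as a black bar and 2-fold dashed. FOSL1 and MAFF stand left of the other 5 subunits, and the reported AP-1 targets have 10 genes left of the 2-fold line and 1 right of it.

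The ratios of FOSL1 and MAFF kept their direction and stayed past 2-fold under all 11 other settings of scaling, pseudocount, level filter and probe set choice. The filter and probe set settings could not alter FOSL1. Its only probe set passes every filter and is not an _s_at or _x_at one. For MAFF these settings kept the same probe set, except the mean of probe sets. The second MAFF probe set alone, not among the 11 settings, had -0.60, short of 2-fold. Over the 11 settings FOSL1 ran from -2.24 to -1.60 and MAFF from -2.19 to -1.12. JUN ran from -1.13 to -0.44 and ATF3 from -0.85 to -0.27, both below 0 in each. JUN passed 2-fold only with centring on the poly-A controls, which moves every gene down by 0.55. FOSL2 and JUNB ran from -0.45 to 0.18 and from -0.36 to 0.21, and JUND, over the settings that left it a probe set, from -0.30 to 0.31.

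**Figure D5:**
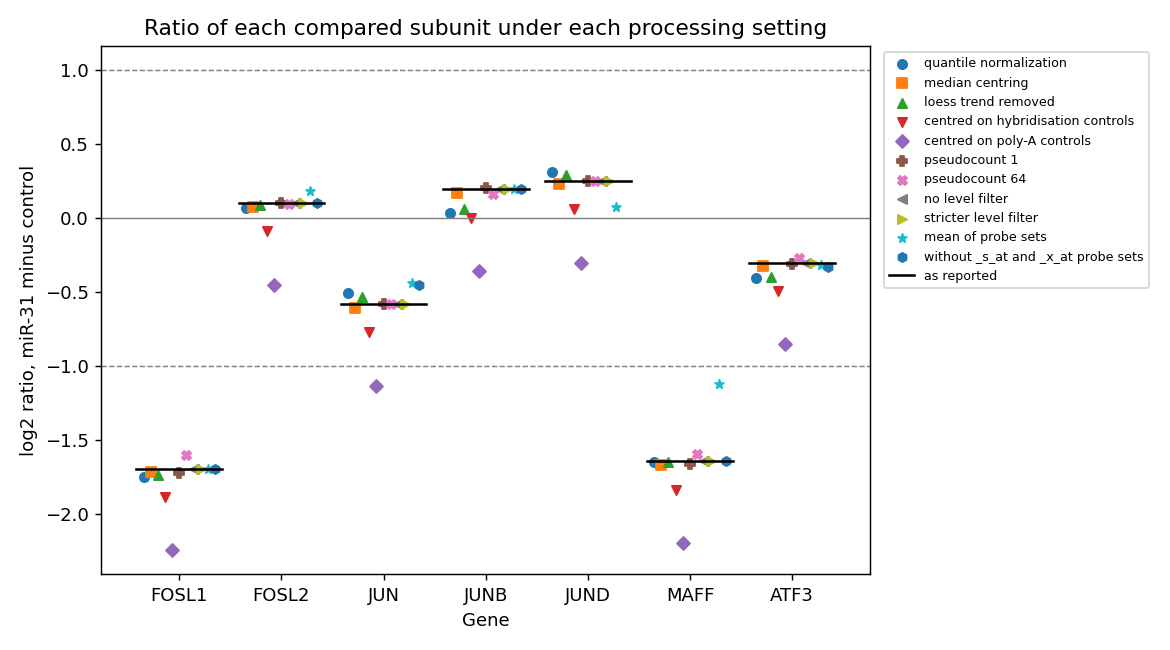
Ratio of each of the 7 compared subunits as reported (black bar) and under 11 other settings (symbols), with 2-fold dashed. FOSL1 and MAFF stay below -1 throughout, and FOSL2, JUNB and JUND change sign with the centring.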

How the data were processed

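U251 cells transfected with miR-31 or a control were each measured on 1 array, per the labels. The authors deposited linear intensities of 54675 probe sets, made with software not given in the sources used here. After trimming 2 percent at each end both arrays had a mean of 499.9, so they had been scaled alike. The members and gene lists were chosen with earlier results of these data known.

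Probe sets with 1 symbol in the platform annotation (41091) were used; 1801 had several, 11721 are unnamed here, and 62 controls were left out. Of the 41091, 41037 matched RefSeq by Entrez identifier, with 0 symbols changed. Ratios, filter and threshold are as stated above. All 10 members were named with every probe set, then from the other lists up to 4 genes each, taken by size of ratio in either direction, and SRF, ELK1, MAPK8, DDIT3, MAFG, MAFK, JDP2, BATF3, EGR1 and MYC in any case; 1 further item is not reported here. The ratio and gene steps were tested on simulated data. Alternatives were quantile normalization, centring on the median of all probe sets, loess (span 0.3), centring on control probe sets, pseudocounts of 1 and 64, no filter, a filter at an intensity of 200, the mean of probe sets, leaving out _s_at and _x_at probe sets, and 1.5-fold. Python 3.11.15, numpy 2.4.6, pandas 2.3.3, statsmodels 0.14.6 and matplotlib 3.10.9 were used.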

Additional observations from a re-analysis of the deposited data

How the results depend on the processing

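No paired analysis was possible because there is 1 array a group, and for the same reason none was left out. A value was taken to move when it changed by more than 0.33, the SD between probe sets of a gene, and a count when it changed by more than 1.5 times. Centring on the poly-A controls moved every ratio by -0.55: FOSL1 became -2.24, MAFF -2.19, JUN -1.13, ATF3 -0.85, FOSL2 -0.45, JUNB -0.36 and JUND -0.30, and the median of the members -0.85. The list medians became -0.88 for reported targets, -0.86 for other early response genes and for SRF and its partners, -0.74 for other bZIP genes, -0.70 for stress genes, -0.62 for cofactors and -0.41 for MAP kinases. Under it 0 targets and 0 MAP kinases were higher, where 1.05% of all genes were, against 3.74% as reported. Lower under it were 8 other early response genes, 4 bZIP genes, 2 stress genes and 1 of the SRF list. Of all genes 10.9% were lower, against 1.58% as reported. Centring on the hybridisation controls left 0 higher targets, 0 higher MAP kinases and 6 lower early response genes, where 3.11% of all genes were lower and 2.26% higher. The mean of probe sets gave MAFF -1.12. A pseudocount of 1 gave 1 higher early response gene, where 4.62% of all genes were higher. A pseudocount of 64 gave 0 higher MAP kinases and 0 lower bZIP genes, where 2.33% of all genes were higher and 1.04% lower. Without a level filter 1 member (BATF2), 2 targets and 1 early response gene were higher, as were 5.99% of all genes. The stricter filter gave 0 higher MAP kinases and 1 lower bZIP gene, where 3.05% of all genes were higher and 1.36% lower. Without _s_at and _x_at probe sets 6 targets, 1 bZIP gene and 1 early response gene were lower, where 1.65% of all genes were. Under the same setting 1 bZIP gene, 1 early response gene, 0 targets, 0 MAP kinases and 0 stress genes were higher, where 3.8% of all genes were. At 1.5-fold 3 targets, 3 MAP kinases, 1 bZIP gene, 2 early response genes and 2 stress genes were higher, and 7 early response genes, 1 stress gene and 1 of the SRF list were lower, where 11.7% of all genes were higher and 6.73% lower. The filter and threshold settings by construction alter which genes can be counted, and for the rest the cause was not tested.

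Chosen after seeing the data, every probe set was taken by itself: 205409_at gave FOSL2 0.46, 214326_x_at and 229117_s_at gave JUND -0.10 and -1.08, 205193_at gave MAFF -0.60 and 1554420_at gave ATF3 -2.21. Likewise added, pseudocounts of 1 and 64 without a filter gave FOS -1.44 and -0.18, FOSB 1.58 and 0.42, and BATF2 1.82 and 0.77. Low signal limits these 3 genes.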
